A study of Mus musculus with 18 samples.

Results

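Glycolysis and glycogen enzymes were described as 36 genes, chosen by symbol from the 19197 genes measured, in the apex of 18 mouse hearts. They cover the hexokinases, glucose phosphate isomerase, the phosphofructokinases and their regulators, the lower steps of glycolysis, the lactate dehydrogenases and the enzymes that build and break glycogen. The choice was made by symbol and not by a cut on values, but with earlier results of these data known. All hearts came from C57BL/6 mice, an inbred laboratory strain with no engineered allele named in the labels, and were taken 1 day after surgery. The 6 MI_DCA hearts had a myocardial infarction (MI) and DCA at 10 mg/kg per day, the 6 MI_vehicle hearts had an infarction and vehicle, and the 6 sham_vehicle hearts had a sham operation and vehicle. DCA is an abbreviation that the labels do not resolve, and was read as deoxycholic acid, since the series title pairs it with the bile acid receptor TGR5, and not as dichloroacetate, which acts on pyruvate dehydrogenase. The sources used here do not give the way the infarction was made or the ages of the mice. It is also not stated whether every library is from its own animal, and the p-values thus cover only the variation among libraries, part of which may be technical.

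Glycolysis splits glucose into pyruvate, and glycogen phosphorylase supplies the same path with glucose 1-phosphate from stored glycogen. Most steps of the path can be carried out by several isoenzymes from separate genes. Adult heart and skeletal muscle are known for Pfkm, Pgam2, Eno3 and Pygm, and heart also for Ldhb, whereas Hk1, Pfkp, Pgam1, Eno1, Ldha and Pygl are found in many other tissues, in blood cells or in liver. The adult heart burns mainly fatty acids, and anaerobic glycolysis to lactate is its oxygen-independent source of ATP.

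Values are FPKM as deposited, reads scaled to transcript length and to the number of mapped reads, so that levels of different genes can be compared per length. Depth was estimated from the spacing of low values at 10050000 to 12800000 mapped reads in the MI_DCA libraries, 11100000 to 13900000 in the MI_vehicle libraries and 9550000 to 10650000 in the sham_vehicle libraries. The hearts were of the type labelled: the summed level of 10 cardiomyocyte markers was 16190 to 38250 FPKM in MI_DCA hearts, 16560 to 34970 in MI_vehicle hearts and 35810 to 39510 in sham_vehicle hearts. The hearts of the infarcted groups did not form a single level. MI_vehicle heart 4 (34970) and MI_DCA hearts 1, 3 and 5 (35320, 38250 and 35930) lay near or inside the sham range of that sum, and the other 8 infarcted hearts lay between 16190 and 28050. Leukocyte markers ran the other way: 9 monocyte and macrophage markers summed to 276 to 732 FPKM in MI_DCA hearts, 459 to 985 in MI_vehicle hearts and 257 to 426 in sham_vehicle hearts, and 8 neutrophil markers to 42.5 to 185, 57.4 to 390.0 and 10.95 to 39.8 FPKM in the same order of groups. The sum of 6 fibroblast markers was 399 to 986 FPKM in MI_DCA hearts, 478 to 917 in MI_vehicle hearts and 1087 to 1349 in sham_vehicle hearts. These 6 did not all move alike, with 2 higher and 2 lower in the MI_vehicle hearts. Mean Gsn was 212 FPKM in MI_vehicle and 582 in sham_vehicle hearts, and mean Dcn 221 and 454. Mean Col1a1 was 180.1 and 109.7 in the same order. The cardiomyocyte sum moved with most results below, and the part of any of these cell types in them was not tested. In such tissue samples, fewer cells of a type and less RNA per cell cannot be told apart.

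In MI_vehicle hearts against sham_vehicle hearts, 29 of the 35 enzyme genes that could be tested differed, and isoenzymes of the same step often moved in opposite directions. The tests were made with limma on log2(FPKM + 1), over all genes with at least 1 FPKM in at least 6 of the 12 libraries compared, and a gene was called at an adjusted p under 0.05. Aldoc did not pass that minimum. Of the members, 14 were called higher and 15 lower, against 38.3% and 20.1% of the 11969 genes tested. The share of members called higher, 14 of 35, was thus near that of all genes, and 15 of 35 were called lower. Higher were Hk1, Hk2, Hk3, Pfkp, Pfkfb3, Pfkfb4, Pgk1, Pgam1, Eno1, Pkm, Ldha, Gyg, Pygl and Gbe1. Lower were Pfkm, Pfkfb1, Pfkfb2, Aldoa, Pgam2, Eno3, Ldhb, Ldhd, Gys1, Pygm, Pygb, Ugp2, Phka1, Phkb and Phkg1. The members' median log2 fold change was -0.02, against 0.12 for all genes. That shift of all genes depends on how libraries are scaled: the split of all calls was 4583 higher and 2408 lower as deposited, 3375 and 3437 after median-ratio scaling, and 3186 and 3752 after quantile normalization. Relative to the median gene, 16 members lay above and 19 below. Under those 2 scalings the members split 11 to 16 and 13 to 15, and the members whose call depended on scaling are named where they are described. Leaving out each heart in turn kept 27 of the 29 calls every time, and without MI_vehicle heart 4 the counts were again 14 and 15.

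**Figure D1:**
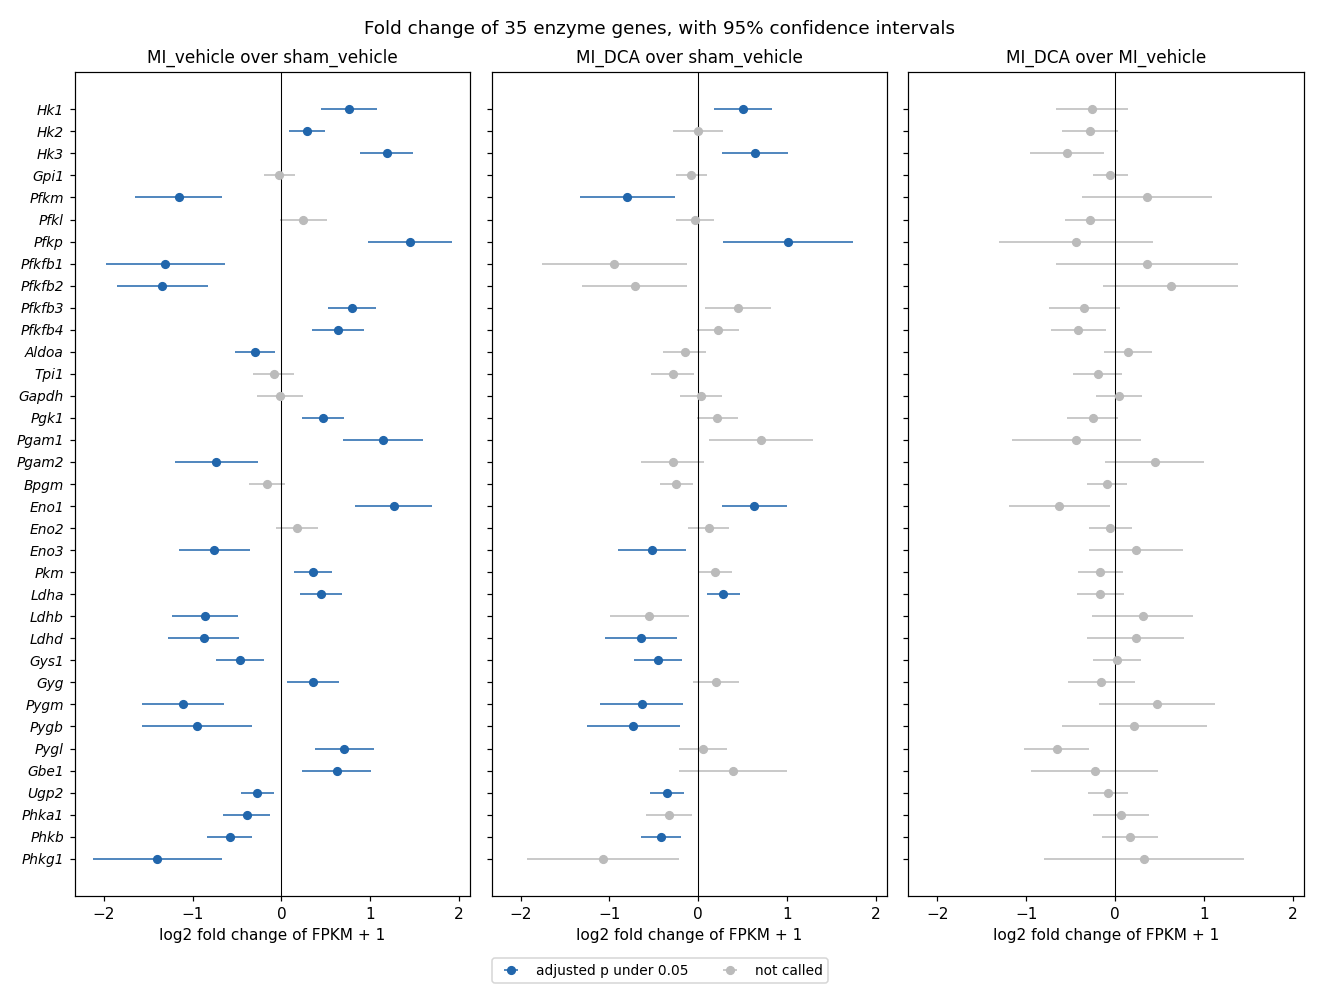
Fold change of the 35 tested enzyme genes on the log2(FPKM + 1) scale, in pathway order from top to bottom, for MI_vehicle over sham_vehicle (left), MI_DCA over sham_vehicle (middle) and MI_DCA over MI_vehicle (right). Points are limma estimates, bars are 95% confidence intervals and blue marks an adjusted p under 0.05: 29 genes are blue in the left panel, 13 in the middle and 0 in the right.

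Hexokinases, which trap glucose in the cell as glucose 6-phosphate, were higher after infarction, and Hk1, a form found in most tissues, more so than Hk2, the insulin-responsive form of heart and skeletal muscle. Hk1 was the larger of the 2 in the sham_vehicle hearts as well, at 56.1 to 62.2% of hexokinase FPKM. Hk1 ranged from 76.1 to 134 FPKM in MI_DCA hearts (median 104), from 80.7 to 168 in MI_vehicle hearts (median 126) and from 58.2 to 81.2 in sham_vehicle hearts (median 72.7). Only MI_vehicle heart 4 among the MI_vehicle hearts was inside the sham range, whereas MI_DCA hearts 1, 3 and 5 were inside it or just above. The log2 fold change of Hk1 in MI_vehicle hearts was 0.76 ± 0.15 (SE, adjusted p = 0.000869, limma, n = 6 hearts per group, as for every gene). Hk2 ranged from 35.2 to 62.8 FPKM in MI_DCA hearts (median 52.6), from 46.5 to 70.1 in MI_vehicle hearts (median 61.1) and from 44.1 to 56.5 in sham_vehicle hearts (median 48.3). The groups overlapped through MI_vehicle heart 4, and MI_DCA hearts 1 and 5 lay below every sham heart. Hk2 rose by 0.28 ± 0.09 in MI_vehicle hearts (adjusted p = 0.0197), a call lost after median-ratio scaling (0.14, adjusted p = 0.172) and quantile normalization (0.18, adjusted p = 0.0977), and with all 18 libraries in 1 fit (adjusted p = 0.0622). Hk3, a form known from leukocytes, was low throughout: 1.28 to 3.91 FPKM in MI_DCA hearts (median 2.42), 2.27 to 4.86 in MI_vehicle hearts (median 4.09) and 0.82 to 1.46 in sham_vehicle hearts (median 1.14). All MI_vehicle hearts lay above all sham hearts, and the fold change was 1.18 ± 0.14 (adjusted p = 5.99e-05). Glucose phosphate isomerase, Gpi1, which follows the hexokinases, had medians of 349 FPKM in MI_DCA hearts, 346 in MI_vehicle hearts and 349.8 in sham_vehicle hearts and was not called (log2 fold change -0.02, adjusted p = 0.821).

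Phosphofructokinase 1 makes the first committed step of glycolysis, and its subunits changed in opposite directions. Pfkm, the muscle subunit (chr15:98092589-98132447, GRCm38.p6), ranged from 122 to 355 FPKM in MI_DCA hearts (median 262), from 112.6 to 334 in MI_vehicle hearts (median 171) and from 361 to 432 in sham_vehicle hearts (median 389). Every infarcted heart of both groups lay below every sham heart, and Pfkm fell by 1.15 on the log2 scale in MI_vehicle hearts (SE 0.23, adjusted p = 0.00107). Pfkp, the platelet subunit (chr13:6579874-6649060), ranged from 31.9 to 139 FPKM in MI_DCA hearts (median 61.5), from 36.9 to 112 in MI_vehicle hearts (median 91.8) and from 24.8 to 35.9 in sham_vehicle hearts (median 28.5). All MI_vehicle hearts were above the sham hearts, heart 4 by little, while MI_DCA hearts 1, 3 and 5 (31.9, 34.3 and 33.7 FPKM) were inside the sham range and hearts 2, 4 and 6 (95.8, 88.6 and 139 FPKM) far above it. The fold change of Pfkp was 1.45 ± 0.22 in MI_vehicle hearts (adjusted p = 0.000238). Pfkl, the liver subunit, had medians of 38.0 FPKM in MI_DCA hearts, 46.1 in MI_vehicle hearts and 41.1 in sham_vehicle hearts and was not called (0.25 ± 0.12, adjusted p = 0.1003), but passed without MI_vehicle heart 2 (0.33, adjusted p = 0.0271) and with array weights (0.30, adjusted p = 0.0205). Pfkm made up 66.8% ± 17.6 of the summed FPKM of the 3 subunits in MI_DCA hearts, 56.7% ± 15.0 in MI_vehicle hearts and 85.1% ± 1.2 in sham_vehicle hearts (SD, n = 6 each). The sum itself was 355 ± 66 FPKM, 324.5 ± 60.2 and 463 ± 32 in the same order.

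The PFKFB enzymes make and remove fructose 2,6-bisphosphate, the main activator of phosphofructokinase 1, and they split into a pair that fell and a pair that rose. Pfkfb2, the heart form, ranged from 5.5 to 18.5 FPKM in MI_DCA hearts (median 11.6), from 4.36 to 16.1 in MI_vehicle hearts (median 5.80) and from 13.2 to 20.4 in sham_vehicle hearts (median 18.8). MI_vehicle heart 4 alone of its group, and MI_DCA hearts 1, 3 and 5, were inside the sham range. Pfkfb2 fell by 1.34 in MI_vehicle hearts (SE 0.24, adjusted p = 0.000562). Pfkfb1, the form of liver and skeletal muscle, ranged from 1.51 to 12.97 FPKM in MI_DCA hearts (median 6.28), from 1.75 to 11.97 in MI_vehicle hearts (median 3.59) and from 7.22 to 14.5 in sham_vehicle hearts (median 12.7), and fell by 1.30 (SE 0.31, adjusted p = 0.00341). The same hearts as for Pfkfb2 stayed inside the sham range. Pfkfb3, the inducible form with the strongest kinase bias, ranged from 3.79 to 10.8 FPKM in MI_DCA hearts (median 6.55), from 6.43 to 11.6 in MI_vehicle hearts (median 8.61) and from 3.58 to 5.68 in sham_vehicle hearts (median 4.53). All MI_vehicle hearts were above all sham hearts, heart 4 included, and so were all MI_DCA hearts except heart 6. The fold change of Pfkfb3 was 0.79 ± 0.13 (adjusted p = 0.000328). Pfkfb4, known from testis and tumours, ranged from 2.19 to 3.55 FPKM in MI_DCA hearts (median 2.56), from 2.71 to 5.57 in MI_vehicle hearts (median 3.48) and from 1.53 to 2.68 in sham_vehicle hearts (median 2.13). It rose by 0.63 ± 0.14 (adjusted p = 0.00166), with MI_vehicle and sham_vehicle hearts apart by a narrow margin.

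In the middle of glycolysis, from aldolase to phosphoglycerate kinase, Pgk1 rose, Aldoa fell, and Tpi1 and Gapdh were not called. Aldoa, the muscle aldolase, which splits fructose 1,6-bisphosphate, ranged from 1563 to 2229 FPKM in MI_DCA hearts (median 2006), from 1589 to 2138 in MI_vehicle hearts (median 1695) and from 2001 to 2262 in sham_vehicle hearts (median 2171). It fell by 0.30 in MI_vehicle hearts (SE 0.10, adjusted p = 0.0237), and this call was lost without MI_vehicle heart 2 (adjusted p = 0.058) or 3 (adjusted p = 0.0534), without the filter on low values (adjusted p = 0.0944) and after quantile normalization (-0.15, adjusted p = 0.271). Aldoc, the brain aldolase, was at 0 to 0.24 FPKM in MI_DCA hearts, 0.10 to 0.74 in MI_vehicle hearts and 0.04 to 0.18 in sham_vehicle hearts, levels of a few reads. Tpi1, which interconverts the triose phosphates, had medians of 329 FPKM in MI_DCA hearts, 376 in MI_vehicle hearts and 389 in sham_vehicle hearts and was not called (-0.09, adjusted p = 0.497). Gapdh, the dehydrogenase that makes NADH in glycolysis and the most abundant member, had medians of 4771 FPKM in MI_DCA hearts, 4789 in MI_vehicle hearts and 4608 in sham_vehicle hearts and was not called (-0.01, adjusted p = 0.929), but its direction turned after quantile normalization (0.35, adjusted p = 0.0121). Pgk1, phosphoglycerate kinase, the first step that returns ATP, ranged from 247 to 343 FPKM in MI_DCA hearts (median 287), from 259 to 423 in MI_vehicle hearts (median 351) and from 233 to 279.9 in sham_vehicle hearts (median 246). It rose by 0.47 ± 0.11 (adjusted p = 0.00296), in all MI_vehicle hearts but heart 4 beyond the sham range. MI_DCA hearts 2, 4 and 6 were above that range and hearts 1, 3 and 5 inside it.

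Phosphoglycerate mutase and enolase carry 3-phosphoglycerate to phosphoenolpyruvate, and at both steps the ubiquitous gene rose and the muscle gene fell. Pgam1, the ubiquitous mutase (chr19:41911871-41918665), ranged from 54.6 to 165 FPKM in MI_DCA hearts (median 82.9), from 64.2 to 190.3 in MI_vehicle hearts (median 131) and from 47.1 to 65.4 in sham_vehicle hearts (median 54.0). Pgam2, the muscle mutase (chr11:5801637-5803796), ranged from 412 to 808 FPKM in MI_DCA hearts (median 610.1), from 289 to 858 in MI_vehicle hearts (median 395) and from 613 to 835 in sham_vehicle hearts (median 706). In MI_vehicle heart 4, Pgam1 was inside the sham range and Pgam2 above it, and in the other 5 MI_vehicle hearts every Pgam1 value was above and every Pgam2 value below the sham hearts. The fold changes were 1.14 ± 0.21 for Pgam1 (adjusted p = 0.000727) and -0.73 ± 0.22 for Pgam2 (adjusted p = 0.0106). Bpgm, which makes 2,3-bisphosphoglycerate in red cells, had medians of 11.1 FPKM in MI_DCA hearts, 12.3 in MI_vehicle hearts and 13.2 in sham_vehicle hearts and was not called (-0.16, adjusted p = 0.166), though it was called lower after median-ratio scaling (-0.29, adjusted p = 0.0194) and quantile normalization (-0.31, adjusted p = 0.0154). Eno1, the ubiquitous enolase (chr4:150236708-150248879), ranged from 123 to 245 FPKM in MI_DCA hearts (median 174), from 137 to 436 in MI_vehicle hearts (median 285) and from 107 to 122 in sham_vehicle hearts (median 112). Every infarcted heart of both groups lay above every sham heart, and the fold change in MI_vehicle hearts was 1.26 ± 0.20 (adjusted p = 0.000315). Eno3, the muscle enolase (chr11:70653125-70662513), ranged from 363 to 736 FPKM in MI_DCA hearts (median 582), from 349.5 to 801 in MI_vehicle hearts (median 394.5) and from 657 to 862 in sham_vehicle hearts (median 811), and fell by 0.76 (SE 0.19, adjusted p = 0.0038). Eno2, the neuronal enolase, was near 1 FPKM in every group and was not called (0.17, adjusted p = 0.189). Eno1 carried 25.6% ± 11.3 of enolase FPKM in MI_DCA hearts, 38.1% ± 13.5 in MI_vehicle hearts and 12.6% ± 0.9 in sham_vehicle hearts (SD, n = 6 each). In MI_vehicle heart 6 it exceeded Eno3, at 55.4%.

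The promoters of some members are shown because members at the same step moved apart, and because Pgk1, Eno1 and Ldha are known targets of the hypoxia-inducible factor HIF-1. Each line gives the 250 bases upstream of a RefSeq transcript start on GRCm38.p6 (for Ldha and Eno1 the first of the starts with a listed window), read along the gene's strand. Capitals mark ACGTG or GCGTG, the core letters that HIF binds, on either strand. The Ldha and Eno3 windows lie inside the spans of these genes, which begin at chr7:46842274 and chr11:70653125. None of these windows overlaps an annotated exon. The windows are chr7:46845554-46845803 (+) for Ldha, chrX:106186850-106187099 (+) for Pgk1, chr19:41911621-41911870 (+) for Pgam1, chr11:5803797-5804046 (-) for Pgam2, chr4:150236458-150236707 (+) for Eno1 and chr11:70656926-70657175 (+) for Eno3.
Ldha: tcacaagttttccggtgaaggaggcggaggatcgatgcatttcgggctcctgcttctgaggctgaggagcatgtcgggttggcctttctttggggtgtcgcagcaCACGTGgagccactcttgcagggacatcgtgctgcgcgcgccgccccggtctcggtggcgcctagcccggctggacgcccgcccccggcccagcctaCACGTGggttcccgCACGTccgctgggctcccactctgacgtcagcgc
Pgk1: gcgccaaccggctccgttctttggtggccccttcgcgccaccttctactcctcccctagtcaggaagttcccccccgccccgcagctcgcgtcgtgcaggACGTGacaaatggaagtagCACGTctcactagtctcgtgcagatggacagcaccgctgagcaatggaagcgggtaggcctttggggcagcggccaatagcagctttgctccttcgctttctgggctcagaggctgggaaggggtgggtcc
Pgam1: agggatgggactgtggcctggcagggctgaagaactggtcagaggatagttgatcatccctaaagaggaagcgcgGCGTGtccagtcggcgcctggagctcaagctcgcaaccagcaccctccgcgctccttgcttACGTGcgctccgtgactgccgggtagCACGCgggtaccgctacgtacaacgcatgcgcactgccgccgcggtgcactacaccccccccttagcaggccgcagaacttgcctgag
Pgam2: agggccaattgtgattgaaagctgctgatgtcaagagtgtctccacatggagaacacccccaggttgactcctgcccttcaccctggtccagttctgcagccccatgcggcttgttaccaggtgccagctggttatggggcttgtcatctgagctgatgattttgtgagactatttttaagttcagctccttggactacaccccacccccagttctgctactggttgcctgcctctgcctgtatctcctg
Eno1: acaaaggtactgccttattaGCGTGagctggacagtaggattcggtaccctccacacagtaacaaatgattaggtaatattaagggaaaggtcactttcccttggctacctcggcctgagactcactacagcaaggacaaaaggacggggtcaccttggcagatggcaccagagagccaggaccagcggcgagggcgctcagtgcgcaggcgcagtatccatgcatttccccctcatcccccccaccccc
Eno3: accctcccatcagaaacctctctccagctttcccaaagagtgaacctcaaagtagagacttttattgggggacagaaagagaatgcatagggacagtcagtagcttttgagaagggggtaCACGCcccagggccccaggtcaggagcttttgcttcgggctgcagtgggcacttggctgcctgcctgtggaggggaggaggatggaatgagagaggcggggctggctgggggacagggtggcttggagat
The Ldha window held 5 matches to ACGTG, with both copies of the palindrome CACGTG counted on each strand. Pgk1 held 2 matches to ACGTG, and Pgam1 held 1 to ACGTG and 2 to GCGTG. Eno1 and Eno3 held 1 match to GCGTG each, and Pgam2 held none. Windows of later starts, not printed, held 2 matches to GCGTG each for 2 more starts of Eno1 and 1 for a second start of Ldha. Over all members, 28 of 36 had either motif in at least 1 of their windows, against 41.5% of 27025 genes in the table, and 11 members have more than 1 window. Counted by window, 38 of 54 member windows (70.4%) held either motif against 12679 of 32851 (38.6%). ACGTG was in 35.2% of member windows against 16.6% of all, GCGTG in 50.0% against 28.2%, and the palindrome in 9.3% against 6.0%. The motifs were not confined to members that rose: 13 of the 14 called higher, 12 of the 15 called lower and 3 of the other 7 had one. These matches are letters in a window and were not tested as binding sites.

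Pyruvate kinase makes pyruvate and ATP from phosphoenolpyruvate, and Pkm gives its M1 and M2 forms by using exon 9 in one of 2 versions. Pkm ranged from 598 to 742 FPKM in MI_DCA hearts (median 667), from 624 to 934 in MI_vehicle hearts (median 742) and from 549.8 to 602 in sham_vehicle hearts (median 589). All MI_vehicle hearts lay above all sham hearts and the gene rose by 0.35 ± 0.10 (adjusted p = 0.00793), a call lost after median-ratio scaling (0.21, adjusted p = 0.064). The 2 exons, both on the plus strand of chromosome 9 in GRCm38, are chr9:59675029-59675195 in the M1 transcript and chr9:59675568-59675734 in the M2 transcript. They have 167 bases each, agree at 103 positions, and are shown with the differing bases in capitals because they are all that tells the forms apart in the coding sequence.
M1 exon: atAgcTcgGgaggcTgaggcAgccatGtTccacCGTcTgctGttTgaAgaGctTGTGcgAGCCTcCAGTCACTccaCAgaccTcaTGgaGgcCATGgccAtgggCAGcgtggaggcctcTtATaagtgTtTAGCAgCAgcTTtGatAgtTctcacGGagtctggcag
M2 exon: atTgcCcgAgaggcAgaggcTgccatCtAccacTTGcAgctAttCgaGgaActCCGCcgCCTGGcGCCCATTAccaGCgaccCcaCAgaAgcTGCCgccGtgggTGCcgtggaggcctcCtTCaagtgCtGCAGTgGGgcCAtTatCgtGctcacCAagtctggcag
Of 6 Pkm transcripts in the files, only the M1 transcript NM_001253883.1 and the M2 transcript NM_011099.3 were identified by the reference used. The M2 transcript was listed at 0 in all 18 hearts. The M1 transcript carried 37.3% ± 2.3 of summed Pkm transcript FPKM in MI_DCA hearts, 39.4% ± 5.8 in MI_vehicle hearts and 41.1% ± 4.0 in sham_vehicle hearts (SD, n = 6 each), and no comparison of that share passed a two-sided exact permutation test (smallest adjusted p = 0.1197, over 9 tests). Without sham_vehicle heart 4, however, the difference of MI_DCA from sham_vehicle hearts was -4.84 percentage points and passed (exact permutation test, adjusted p = 0.0303). Nearly all the rest lay on 2 predicted transcripts whose form was not identified here. XM_006510856.2 carried 23.9% ± 5.1 of the sum in MI_DCA hearts, 32.8% ± 7.4 in MI_vehicle hearts and 13.2% ± 2.6 in sham_vehicle hearts. Its share was 19.6 percentage points higher in MI_vehicle hearts and 10.7 higher in MI_DCA hearts than in sham_vehicle hearts (exact permutation test, adjusted p = 0.00974 for both). XM_011242673.1 carried 38.8% ± 5.8, 27.8% ± 9.6 and 45.7% ± 3.6 in the same order, with a difference of -17.9 percentage points in MI_vehicle hearts (exact permutation test, adjusted p = 0.013) and -6.92 in MI_DCA hearts (adjusted p = 0.0633). Neither share differed between MI_DCA and MI_vehicle hearts past the threshold (adjusted p = 0.0682 and 0.0662, exact permutation test). Transcript values divide reads of 50 bases among overlapping transcripts by estimation, so these shares carry more uncertainty than the gene value.

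Lactate dehydrogenase interconverts pyruvate and lactate as tetramers of A and B subunits, and its genes moved in opposite directions. Ldha, the subunit of skeletal muscle and other glycolytic tissue (chr7:46842274-46855627), ranged from 488 to 657 FPKM in MI_DCA hearts (median 555), from 502 to 742 in MI_vehicle hearts (median 656) and from 432 to 481 in sham_vehicle hearts (median 466). Every infarcted heart of both groups lay above every sham heart, and Ldha rose by 0.45 ± 0.11 in MI_vehicle hearts (adjusted p = 0.00359). Ldhb, the subunit of heart (chr6:142490249-142507957), ranged from 566 to 1313 FPKM in MI_DCA hearts (median 1045), from 518 to 1276 in MI_vehicle hearts (median 722) and from 1280 to 1434 in sham_vehicle hearts (median 1383), and fell by 0.86 (SE 0.17, adjusted p = 0.00116). MI_vehicle heart 4 was just below the lowest sham heart, and MI_DCA hearts 1 and 3 were inside the sham range. Ldha made up 37.9% ± 8.3 of the sum of both in MI_DCA hearts, 45.9% ± 9.9 in MI_vehicle hearts and 25.3% ± 1.3 in sham_vehicle hearts (SD, n = 6 each). Ldhd, a mitochondrial enzyme of D-lactate, ranged from 8.63 to 19.5 FPKM in MI_DCA hearts (median 15.1), from 7.74 to 22.4 in MI_vehicle hearts (median 11.1) and from 19.4 to 27.5 in sham_vehicle hearts (median 21.1). It fell by 0.87 (SE 0.19, adjusted p = 0.00169), in all MI_vehicle hearts but heart 4 below the sham range.

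**Figure D2:**
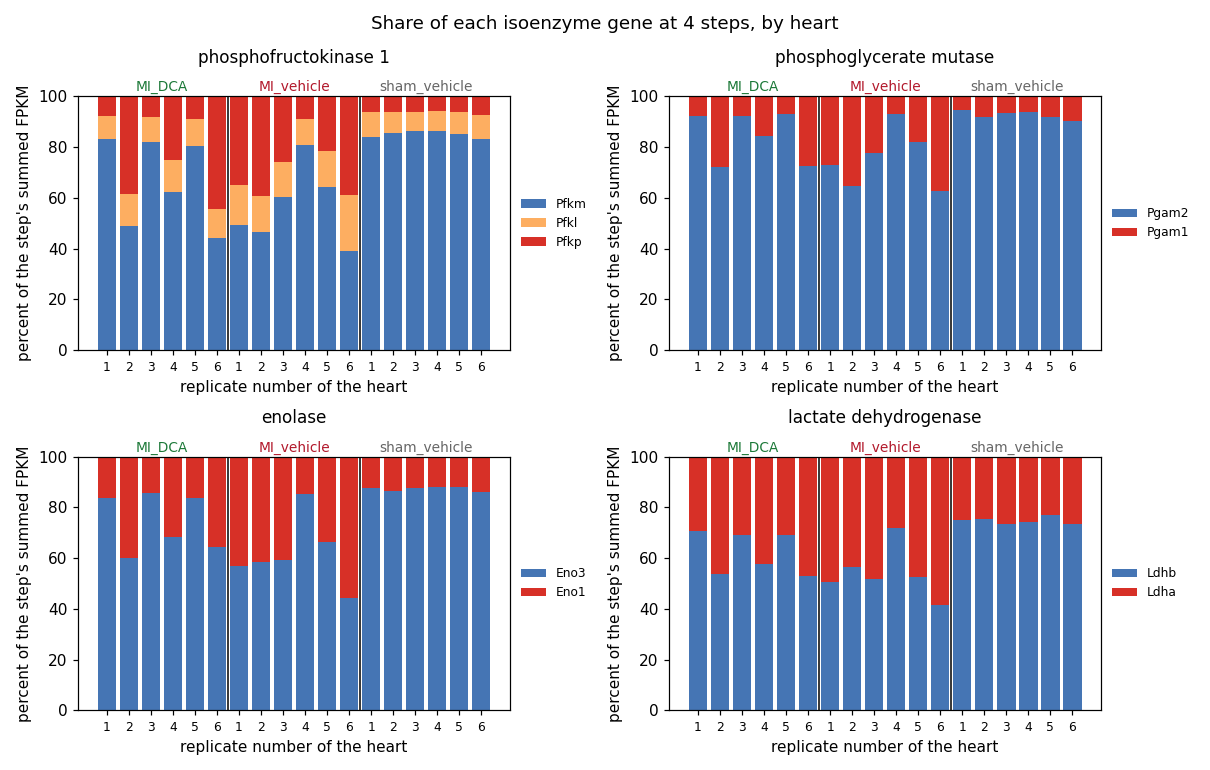
Share of each isoenzyme gene in the summed FPKM of its step, in percent, for phosphofructokinase 1, phosphoglycerate mutase, enolase and lactate dehydrogenase, with 1 stacked bar per heart in the order MI_DCA, MI_vehicle and sham_vehicle. Blue marks the gene known from adult muscle or heart, which holds 73.5% or more of the sum in every sham heart and falls to 39.1% for Pfkm and 41.6% for Ldhb in MI_vehicle heart 6.

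Among the enzymes that build glycogen, the synthase fell while the primer and the branching enzyme rose. Gys1, the muscle glycogen synthase, ranged from 35.1 to 53.4 FPKM in MI_DCA hearts (median 43.4), from 31.0 to 48.0 in MI_vehicle hearts (median 43.1) and from 46.6 to 72.0 in sham_vehicle hearts (median 55.9). It fell by 0.47 in MI_vehicle hearts (SE 0.13, adjusted p = 0.00683), with MI_vehicle hearts 4 and 5 inside the sham range. Ugp2, which makes UDP-glucose, ranged from 69.7 to 96.0 FPKM in MI_DCA hearts (median 79.2), from 74.8 to 103 in MI_vehicle hearts (median 87.1) and from 97.2 to 114 in sham_vehicle hearts (median 103.5), and fell by 0.27 (SE 0.09, adjusted p = 0.0185). All MI_DCA hearts, hearts 1, 3 and 5 among them, lay below all sham hearts, whereas MI_vehicle heart 4 lay inside the sham range. Gyg, glycogenin, which starts a new glycogen particle, ranged from 124 to 200.2 FPKM in MI_DCA hearts (median 155), from 129.7 to 228 in MI_vehicle hearts (median 162) and from 128 to 142 in sham_vehicle hearts (median 133). It rose by 0.35 ± 0.14 (adjusted p = 0.0404), but this call held in only 3 of 12 fits that left out a heart (adjusted p = 0.0139 to 0.0934). It was lost without MI_vehicle heart 1, 2 or 3 or any sham heart, after median-ratio scaling (0.21, adjusted p = 0.192) or quantile normalization (adjusted p = 0.052), and without the filter on low values (adjusted p = 0.0559). Gbe1, the branching enzyme, ranged from 12.1 to 45.7 FPKM in MI_DCA hearts (median 20.3), from 15.5 to 38.6 in MI_vehicle hearts (median 29.0) and from 14.4 to 19.7 in sham_vehicle hearts (median 17.0), and rose by 0.62 ± 0.18 (adjusted p = 0.00956), although not with all 18 libraries in 1 fit (adjusted p = 0.0666). MI_DCA hearts 2, 4 and 6 were above the sham range, 3 and 5 inside it and 1 below.

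Glycogen phosphorylase breaks glycogen down, and its muscle and brain genes fell while the liver gene rose from a low level. Pygm, the muscle form (chr19:6384408-6398464), ranged from 245 to 596 FPKM in MI_DCA hearts (median 446), from 200.5 to 579 in MI_vehicle hearts (median 262) and from 592 to 713 in sham_vehicle hearts (median 611). Every MI_vehicle heart lay below every sham heart, and Pygm fell by 1.10 (SE 0.21, adjusted p = 0.000991). Pygb, the brain form, which the heart also uses, ranged from 94.2 to 266 FPKM in MI_DCA hearts (median 199), from 72.2 to 279 in MI_vehicle hearts (median 158) and from 234 to 318 in sham_vehicle hearts (median 288), and fell by 0.95 (SE 0.29, adjusted p = 0.0125), with MI_vehicle hearts 4 and 5 inside the sham range. Pygl, the liver form, ranged from 2.08 to 3.87 FPKM in MI_DCA hearts (median 3.03), from 3.18 to 7.12 in MI_vehicle hearts (median 5.22) and from 2.21 to 3.69 in sham_vehicle hearts (median 2.67). It rose by 0.71 ± 0.15 in MI_vehicle hearts (adjusted p = 0.0019). Of the MI_DCA hearts only heart 2 exceeded the sham range for Pygl. Phosphorylase kinase, which switches phosphorylase on, fell in all 3 subunit genes listed. Phkb, the regulatory beta subunit, ranged from 6.82 to 10.5 FPKM in MI_DCA hearts (median 8.73), from 5.58 to 10.6 in MI_vehicle hearts (median 7.54) and from 10.8 to 13.1 in sham_vehicle hearts (median 11.7). Every infarcted heart lay below every sham heart, and the change in MI_vehicle hearts was -0.58 ± 0.12 (adjusted p = 0.00113). Phka1, the muscle alpha subunit, ranged from 4.35 to 7.77 FPKM in MI_DCA hearts (median 6.00), from 4.23 to 7.28 in MI_vehicle hearts (median 6.01) and from 6.47 to 9.07 in sham_vehicle hearts (median 7.89), with a change of -0.39 ± 0.12 (adjusted p = 0.0152). Phkg1, the muscle catalytic subunit, ranged from 1.23 to 10.3 FPKM in MI_DCA hearts (median 4.30), from 0.75 to 9.37 in MI_vehicle hearts (median 2.72) and from 7.68 to 11.6 in sham_vehicle hearts (median 9.69). Its change of -1.398 ± 0.34 (adjusted p = 0.0035) was called, and MI_vehicle heart 4 and MI_DCA hearts 1 and 3 were inside the sham range.

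The isoenzymes of a step were also compared within each heart, as the log2 ratio of their FPKM + 1. A factor common to a whole library nearly cancels in such a ratio for abundant genes, but not for genes near 1 FPKM or below, whose ratio depends on the pseudocount. Over 10 pairs and 3 comparisons, each difference in mean log2 ratio was tested two-sided by exact permutation of all regroupings of the 12 hearts (smallest possible p 0.00216) and adjusted over the 30 tests. In MI_vehicle against sham_vehicle hearts 9 of the 10 ratios rose. The mean log2 ratio of Pfkp to Pfkm was -1.11 ± 1.16 in MI_vehicle hearts and -3.71 ± 0.15 in sham_vehicle hearts, a difference of 2.60. The difference was 2.13 for Pfkfb3 to Pfkfb2, 2.02 for Eno1 to Eno3, 1.4 for Pfkl to Pfkm, 1.31 for Ldha to Ldhb and 0.48 for Hk1 to Hk2. For these 6 pairs every MI_vehicle heart, heart 4 included, lay above every sham heart, and the exact adjusted p was 0.0059. Pgam1 to Pgam2 differed by 1.87 (exact adjusted p = 0.0173), Pygl to Pygm by 1.81 (0.0108) and Aldoc to Aldoa by 0.70 (0.0139), with 5 of 6 hearts above the sham range, but the last rests on Aldoc values below 1 FPKM, and its difference was 1.76 with a pseudocount of 0.1. Pygb to Pygm differed by 0.16 (exact adjusted p = 0.383). All 9 stayed past the threshold when any 1 heart was left out. The spread within the infarcted groups was several times that of the sham hearts for most pairs, with MI_vehicle heart 4 and MI_DCA hearts 1, 3 and 5 nearest to the sham hearts for Pfkp to Pfkm.

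**Figure D3:**
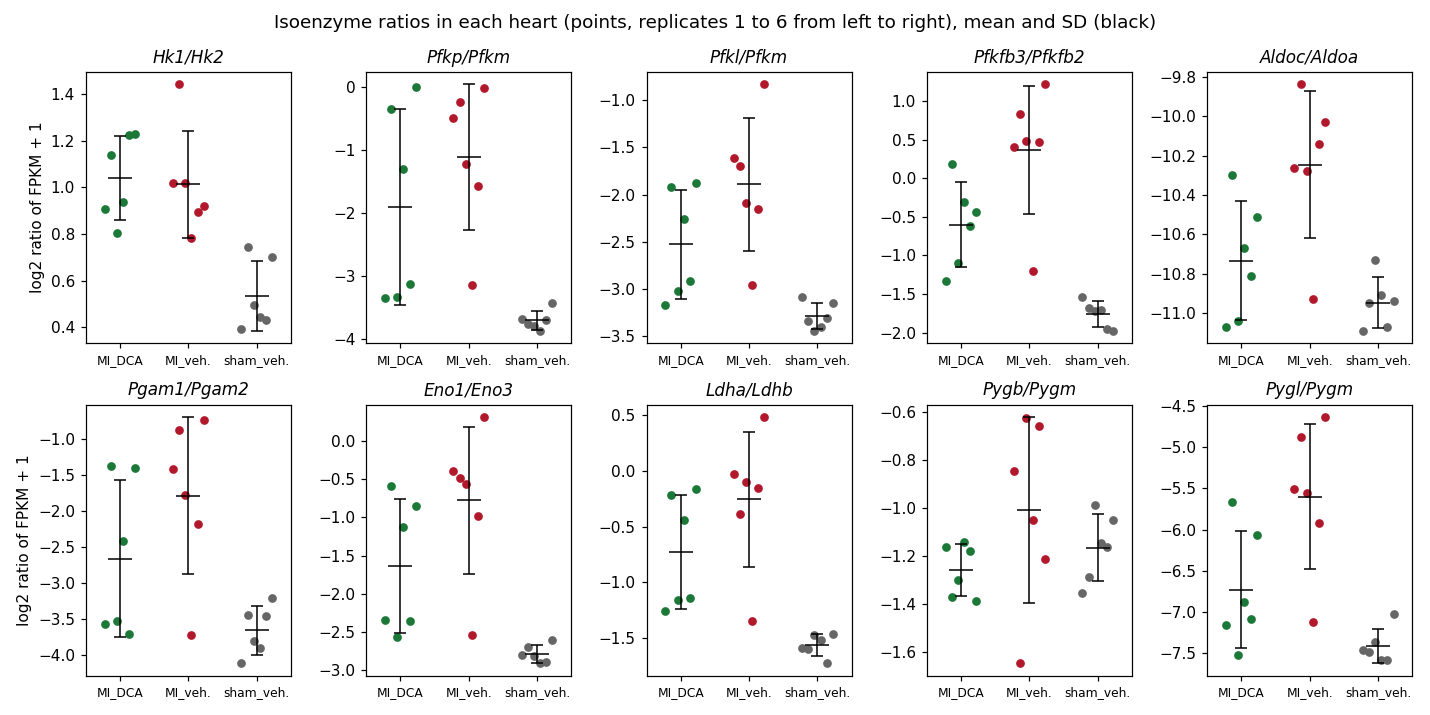
Log2 ratio of FPKM + 1 for 10 isoenzyme pairs in every heart, with MI_DCA hearts in green, MI_vehicle hearts in red and sham_vehicle hearts in grey (points) and the mean and SD of each group (black, n = 6). For Pfkp/Pfkm the MI_DCA hearts fall into a low set between -3.36 and -3.13 (hearts 1, 3 and 5) and a high set between -1.30 and 0.01 (hearts 2, 4 and 6), and the sham hearts lie between -3.87 and -3.44.

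In MI_DCA hearts against sham_vehicle hearts, 13 members were called, 5 higher and 8 lower, against 15.5% and 8.33% of the 11842 genes tested. The split of all calls was 1830 higher and 987 lower as deposited, 1342 and 1391 after median-ratio scaling and 1308 and 1559 after quantile normalization. The members then split 2 higher and 9 lower after median-ratio scaling and 2 and 11 after quantile normalization, and both scalings ended the calls of Hk1, Pfkp and Ldha. The members higher were Pfkp (1.01 ± 0.34, adjusted p = 0.0477), Hk3 (0.64 ± 0.17, 0.0244), Eno1 (0.63 ± 0.17, 0.0256), Hk1 (0.50 ± 0.15, 0.0327) and Ldha (0.28 ± 0.09, 0.0359). The members lower were Pfkm (-0.80 ± 0.25, adjusted p = 0.0363), Pygb (-0.73 ± 0.24, 0.0455), Ldhd (-0.65 ± 0.19, 0.0313), Pygm (-0.64 ± 0.22, 0.0489), Eno3 (-0.52 ± 0.18, 0.0497), Gys1 (-0.45 ± 0.13, 0.0280), Phkb (-0.42 ± 0.10, 0.0203) and Ugp2 (-0.35 ± 0.09, 0.0215). All 13 were called in the same direction in MI_vehicle hearts, a comparison that shares the sham hearts. Among members not called here, Phkg1 (-1.07, adjusted p = 0.0613), Pgam1 (0.71, 0.0707), Pfkfb2 (-0.71, 0.0702) and Ldhb (-0.55, 0.0633) differed by more than 0.5, as did Pfkfb1 (-0.95, 0.0785), while Pygl (0.05, 0.7808), Gapdh (0.03, 0.8437) and Hk2 (adjusted p = 0.9937) were close to 0. Most of these calls are near the threshold: Phkb alone kept its call whichever heart was left out (adjusted p = 0.00924 to 0.0488), while Ugp2 kept it in 11 of 12 fits, Hk3 in 10, Eno1 in 8, Gys1 in 7, Ldha in 5, Ldhd in 4 and the other 6 in 3. Without MI_DCA heart 1, 3 or 5 there were 6 members higher each time and 12, 15 and 12 lower. Without MI_DCA heart 2, 4 or 6 there were 2, 1 and 2 higher and 2 lower each time. Without sham heart 1, 2, 3, 4, 5 or 6 there were 3, 2, 1, 2, 0 and 2 higher and 4, 2, 3, 3, 1 and 3 lower. Of the isoenzyme ratios, 6 rose in MI_DCA hearts: Pfkp to Pfkm by 1.80, Pfkfb3 to Pfkfb2 by 1.16, Eno1 to Eno3 by 1.15, Ldha to Ldhb by 0.83 and Hk1 to Hk2 by 0.50 (exact adjusted p = 0.0059, 6 of 6 hearts above every sham heart), and Pfkl to Pfkm by 0.76 (exact adjusted p = 0.0139, 5 of 6 hearts). Pfkp to Pfkm was past the threshold in no fit that left out a sham heart, and Pfkl to Pfkm in none that left out sham heart 2, 3, 4 or 5. Pygl to Pygm passed without MI_DCA heart 3 (0.85, exact adjusted p = 0.0162).

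In MI_DCA hearts against MI_vehicle hearts no member was called, and neither was any of the 12004 genes tested in limma (0% higher and 0% lower, smallest adjusted p = 0.3008, 192 genes higher and 1107 lower at an unadjusted p under 0.05). On the log2(FPKM + 1) scale the largest differences among the members were in Pygl (-0.66 ± 0.17, 95% interval -1.03 to -0.29), Eno1 (-0.63 ± 0.26, -1.20 to -0.06), Pfkfb2 (0.62 ± 0.35, -0.14 to 1.38) and Hk3 (-0.54 ± 0.19, -0.96 to -0.12). For Pygl the adjusted p was 0.407, and 4 of 6 MI_DCA hearts lay below every MI_vehicle heart. Wide intervals leave sizeable differences in either direction possible, for instance -0.37 to 1.08 for Pfkm and -1.31 to 0.42 for Pfkp. None of the 10 isoenzyme ratios passed (smallest exact adjusted p = 0.0615). Without MI_vehicle heart 4, though, 4 ratios were lower in MI_DCA hearts, with differences of -1.285 for Pfkfb3 to Pfkfb2 and -0.62 for Aldoc to Aldoa (exact adjusted p = 0.00812 for both), -1.43 for Pygl to Pygm (0.018) and -1.22 for Eno1 to Eno3 (0.0479). Without MI_DCA heart 2 there were 2, Pygl to Pygm (-1.34, exact adjusted p = 0.0365) and Aldoc to Aldoa (-0.57, 0.0458), and without MI_vehicle heart 2 there was 1, Pygb to Pygm (-0.38, 0.0162). With array weights, which fall for libraries far from the rest of their group, 11 members were higher and 14 lower, as were 1623 and 3747 of all genes. Those weights were lowest for MI_DCA hearts 2, 6 and 4 (0.275, 0.312 and 0.592) and MI_vehicle heart 4 (0.357). MI_DCA hearts 1, 3 and 5, the ones nearest to the sham hearts, had weights of 2.47, 1.66 and 2.5. The weighted fit thus leaned on these 3 hearts and little on MI_vehicle heart 4, and its calls cannot be told apart from that choice of hearts.

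**Figure D4:**
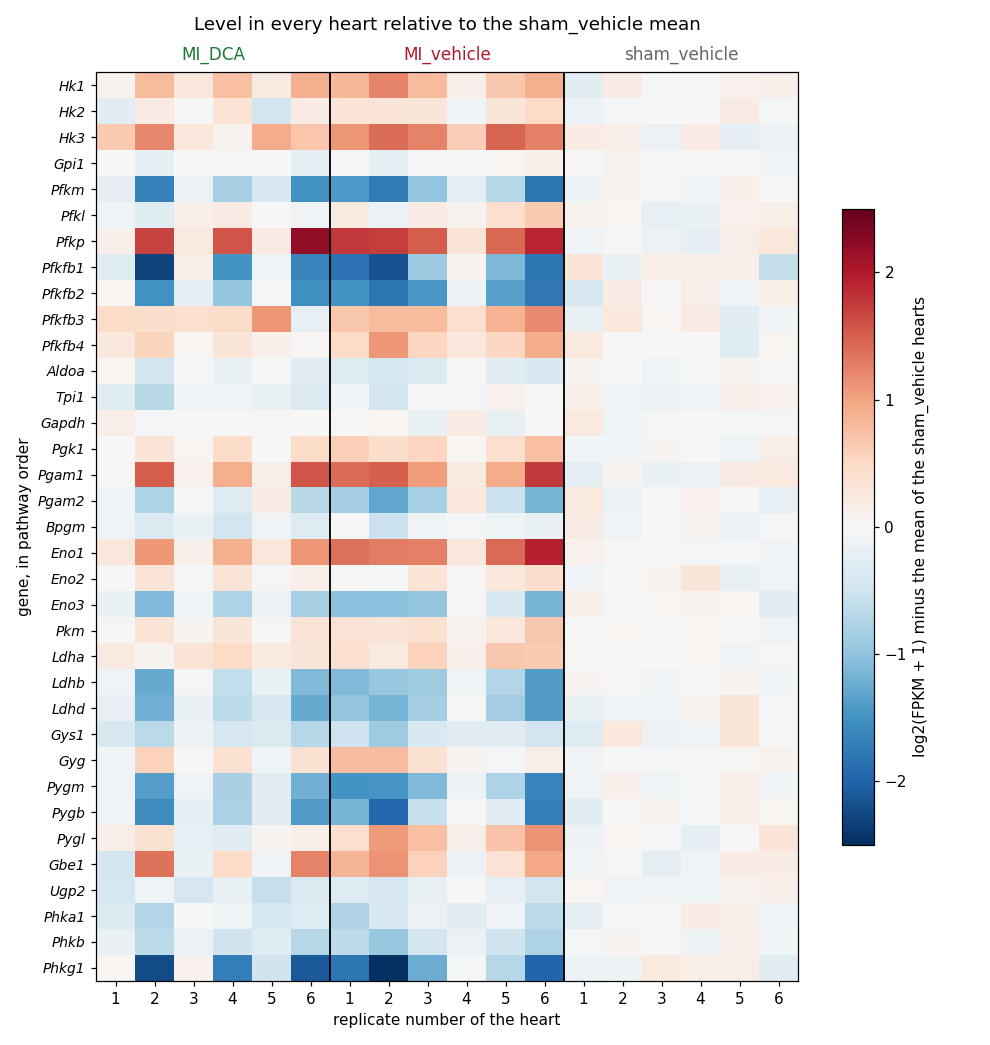
Level of the 35 tested enzyme genes in every heart, as log2(FPKM + 1) minus the mean of the 6 sham_vehicle hearts, with genes in pathway order and hearts in the order MI_DCA, MI_vehicle and sham_vehicle. MI_DCA hearts 1, 3 and 5 and MI_vehicle heart 4 are paler in most rows than the other 8 infarcted hearts. In these 4 hearts 15, 10, 17 and 13 of the 35 genes lay outside the sham range (42.9, 28.6, 48.6 and 37.1%). That was near the share of all 11916 genes tested, at 36.8, 30.5, 42.0 and 36.4%. The other 8 infarcted hearts share the same red rows (Pfkp, Pgam1 and Eno1 among them) and blue rows (Pfkm, Pfkfb2 and Phkg1 among them).

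The 12 infarcted hearts differed among themselves by how many members lay outside the range of the 6 sham hearts. The count was 15, 33, 10, 30, 17 and 29 of 35 in MI_DCA hearts 1 to 6, and 30, 32, 31, 13, 27 and 33 in MI_vehicle hearts 1 to 6. Over 11916 genes with at least 1 FPKM in at least 9 of the 18 libraries, the share outside that range was 36.8, 74.1, 30.5, 61.4, 42.0 and 71.7% in MI_DCA hearts 1 to 6 and 70.8, 75.0, 66.8, 36.4, 61.6 and 75.2% in MI_vehicle hearts 1 to 6. The hearts with few members outside were thus the hearts with few genes outside, and the ones whose cardiomyocyte markers summed highest. In MI_DCA hearts 1 to 6 that marker sum was 35320, 16190, 38250, 28050, 35930 and 19830 FPKM, and in MI_vehicle hearts 1 to 6 it was 20350, 16770, 22630, 34970, 27810 and 16560.

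**Figure D5:**
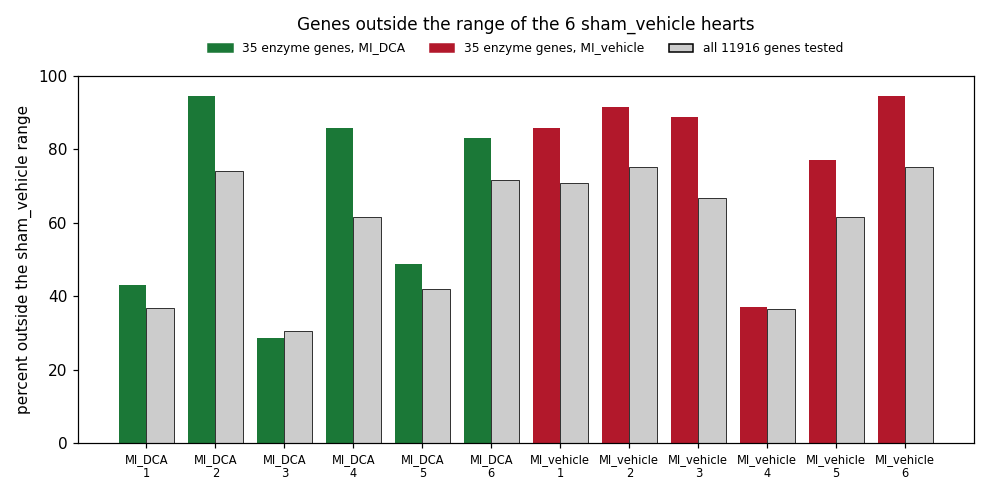
Percent of the 35 enzyme genes (coloured bars) and of all 11916 genes tested (grey bars) whose FPKM lay above the highest or below the lowest of the 6 sham_vehicle hearts, for each infarcted heart. MI_DCA heart 3 (28.6% of enzyme genes) and MI_vehicle heart 4 (37.1%) have the shortest bars, and MI_DCA heart 2 and MI_vehicle heart 6 (94.3% each) the tallest.

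Genes around the pathway were counted in lists. In MI_vehicle against sham_vehicle hearts, 5 of 12 tested genes of glucose transport and first steps rose and 7 fell, where 38.3% of all genes were called higher and 20.1% lower. The share of this list called higher was thus near that of all genes. Slc2a1, the ubiquitous glucose transporter GLUT1, averaged 44.1 ± 20.02 FPKM in MI_vehicle hearts and 9.49 ± 1.19 in sham_vehicle hearts (SD, n = 6 each; log2 fold change 1.94, adjusted p = 0.000321). Slc2a4, the insulin-dependent transporter GLUT4 of muscle, averaged 97.8 ± 46.4 FPKM in MI_vehicle hearts and 228 ± 16 in sham_vehicle hearts (-1.35, adjusted p = 0.000946). Of 6 genes of lactate and pyruvate transport 1 rose and 4 fell, against the same 38.3% and 20.1%. Slc16a3, the lactate exporter MCT4, averaged 31.6 ± 19.4 FPKM in MI_vehicle hearts and 2.11 ± 0.58 in sham_vehicle hearts (3.15, adjusted p = 7.41e-05), a larger change on the log2(FPKM + 1) scale than in any of the 35 tested enzyme genes. The mitochondrial pyruvate carrier genes Mpc2 and Mpc1 fell by 0.78 (adjusted p = 0.00135) and 0.57 (adjusted p = 0.00842), as did Bsg, a chaperone of lactate transporters (-0.53, adjusted p = 0.000912).

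Side branches from the upper pathway rose without exception among their called genes. In the pentose phosphate path, which makes NADPH and ribose, 6 of 8 genes rose and 0 fell, among them Pgd (1.03, adjusted p = 0.000182), G6pdx (0.93, adjusted p = 0.000374), Tkt (0.74, adjusted p = 0.000658) and Taldo1 (0.74, adjusted p = 0.00155). In the hexosamine path, which makes UDP-GlcNAc for glycosylation, 4 of 6 rose and 0 fell: Pgm3 (0.69, adjusted p = 0.000262), Gfpt1 (0.60, adjusted p = 0.0019), Gnpnat1 (0.56, adjusted p = 0.00586) and Uap1 (0.41, adjusted p = 0.00855). The medians of these lists were 0.59 and 0.48, against 0.12 over all genes, where 38.3% were called higher. Of 18 tested genes of glycogen regulation 5 rose and 6 fell, a share below that of all genes for the rises (38.3%) and above it for the falls (20.1%). Stbd1, which tethers glycogen for lysosomes, rose by 1.35 (adjusted p = 0.000146) and Pgm1 by 0.99 (adjusted p = 0.000347), whereas Epm2a, the glycogen phosphatase laforin, fell by 0.69 (adjusted p = 0.0296). Pgm1 was the lower of 2 Pgm genes in sham_vehicle hearts, at a mean of 5.06 FPKM against 132.6 for Pgm2. In MI_DCA hearts Pgm2 averaged 92.85 FPKM and was lower than in sham_vehicle hearts (-0.56, limma, adjusted p = 0.0351). Of 4 tested gluconeogenic genes, Fbp2, the muscle fructose bisphosphatase, fell by 1.46 (adjusted p = 0.00686) and Pcx, pyruvate carboxylase, by 0.27 (adjusted p = 0.0409). Of 14 tested hypoxia response genes 6 rose and 4 fell, where 38.3% of all genes were called higher and 20.1% lower. The share of this list called higher was thus near that of all genes. The largest changes were rises, in Hmox1 (1.84, adjusted p = 0.000477), Egln3 (1.35, adjusted p = 0.00181), P4ha1 (1.01, adjusted p = 0.000383) and Adm (0.87, adjusted p = 0.0233). The genes that fell changed by less. Of the same list, Hmox1 (1.24, adjusted p = 0.0175) and P4ha1 (0.56, 0.0419) were higher in MI_DCA than in sham_vehicle hearts. Egln1 (-0.67, 0.0172) and Bnip3 (-0.56, 0.0445) were lower there (limma). In MI_DCA against sham_vehicle hearts the counts higher and lower were 2 and 3 of 11 tested for glucose transport, 1 and 4 of 17 for glycogen regulation, 2 and 0 of 8 for the pentose phosphate path, 1 and 0 of 6 for hexosamine, 1 and 1 of 6 for lactate and pyruvate transport, 0 and 0 of 4 for gluconeogenesis and 2 and 2 of 14 for hypoxia response. Among all genes 15.5% were called higher and 8.33% lower in that comparison. No gene of these lists was called between MI_DCA and MI_vehicle hearts.

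Markers of cell types were called as follows in MI_vehicle against sham_vehicle hearts, where 38.3% of all genes were called higher and 20.1% lower. Of 10 cardiomyocyte markers 8 fell, led by Pln (-1.33), Myh6 (-1.19) and Tnni3 (-0.98). All 9 monocyte and macrophage markers rose, led by Ly6c2 (3.69), Fcgr1 (2.35) and Ccr2 (1.90), and all 6 tested neutrophil markers rose, led by S100a9 (3.36), S100a8 (2.87) and Retnlg (2.59). Fibroblast markers split, with 2 higher and 2 lower of 6, as did those of smooth muscle and pericytes, and endothelial markers gave 1 higher and 2 lower of 6. Erythroid markers gave no call among 5 tested. Skeletal muscle is another source of Pygm, Pgam2 and Eno3, and Myh1, Myh2, Myh4 and Actn3 were under 1 FPKM in all hearts, while 2 of the other 3 of that list rose (Tnnt3 and Tnni2). Of the atrial list Bmp10 was at 0 in every heart and Nppa, also a ventricular stress gene, rose by 3.37. Adipocyte markers were under 1 FPKM throughout. In MI_DCA against sham_vehicle hearts 5 of 10 cardiomyocyte markers and 4 of 6 fibroblast markers fell. There 5 of 9 monocyte and macrophage markers and all 6 tested neutrophil markers rose. Among all genes 15.5% were called higher and 8.33% lower in that comparison.

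Some members share sequence with other genes, so that reads of 50 bases may have been divided among them or assigned to only 1 of them. The share of a gene's 50-base windows that also occur in another annotated gene was 53.9% for Pgk1, 36.2% for Pgam1, 26.0% for Eno1, 25.8% for Pkm, 24.7% for Gapdh, 21.0% for Ldhb and 15.9% for Pfkfb2, and 9.0% or less for the other members. Eno1b, which shares most windows with Eno1, was listed at 0 to 0.54 FPKM in all hearts, while the Gapdh pseudogene Gapdh-ps15 was listed at 173 to 217 FPKM in MI_DCA hearts, 84.1 to 150 in MI_vehicle hearts and 141 to 250.2 in sham_vehicle hearts. For Pgk1, Pgam1, Pkm, Ldhb and Pfkfb2, the genes that share most windows were not found by symbol in the deposited tables. Reads were thus not seen to be divided with those genes, and whether any of their reads were assigned to the member was not tested. Values of members that share windows are uncertain for these reasons. Exons of Pfkm, Pfkp, Hk3 and Gys1, among others, overlap those of a gene on the opposite strand (Senp1, Pitrm1, Unc5a and Ruvbl2). The labels do not say whether strand was used, so reads in the overlap cannot be told apart.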

How the data were processed

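Captured-RNA libraries from the apex of 18 mouse hearts, 6 per group, were read as single ends of 50 bases, per the labels' protocols. Each library has a gene and a transcript table of FPKM values as deposited by the authors, rounded to 2 decimals. The headers do not name the unit, and it was read from the values, whose sums over genes were 516274 to 584701. Bowtie2 2.2.5, RSEM 1.2.12, DESeq2 1.4.5 and GRCm38.p6 are named in the submitters' processing notes without their roles. Depth was estimated here from the 1-read steps of 1838 genes with a single transcript, searched between 8000000 and 16000000 reads, and steps of wider or narrower spacing outside that range were not considered. The precision of low values is limited by that depth.

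Groups were taken from the labels. Each comparison was fitted on its own 12 libraries with limma 3.58.1 (R 4.3.3) on log2(FPKM + 1), with a mean-variance trend and Benjamini-Hochberg adjustment over all genes with at least 1 FPKM in 6 libraries. Fold changes on this scale understate the change of low genes. Isoenzyme ratios and Pkm shares were compared with two-sided exact permutation tests (Python 3.11.15, scipy 1.17.1). The scripts were tested on simulated data. The named genes are all 36 members, plus by rule up to 4 called genes per further list and up to 3 per marker list, the largest by absolute log2 fold change. Marker genes at 0 or under 1 FPKM are named as such. Some genes that the rule names in the further lists are not reported here. Members and lists were chosen with earlier results of these data known. Of the gene IDs, 19051 (99.2%) matched RefSeq, and 26 symbols altered into dates were restored. Alternatives were other pseudocounts, no filter, other scalings, array weights, TPM, 1 fit of all 18 libraries, a replicate block and leaving out each heart.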

Additional observations from a re-analysis of the deposited data

Results flagged for a closer look

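In groups of 6 hearts, 138 sets of values were examined for a lowest or highest heart far from the others, and 9 had one, where chance gives about 1 in 20. MI_vehicle heart 4 stood apart from the other MI_vehicle hearts in Hk2 (46.5 FPKM, the lowest), Pfkp (36.9 FPKM, the lowest), Pfkfb2 (16.1 FPKM, the highest), Aldoa (2138 FPKM, the highest) and the log2 ratio of Pfkfb3 to Pfkfb2 (-1.21, the lowest). MI_vehicle heart 2 stood apart in Tpi1 (279 FPKM, the lowest), Bpgm (8.89 FPKM, the lowest) and the log2 ratio of Hk1 to Hk2 (1.44, the highest). Gapdh was highest in sham_vehicle heart 1 (5580 FPKM).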

How the results depend on the processing

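For MI_vehicle against sham_vehicle hearts, leaving out 1 heart gave 13 to 14 members higher and 14 to 15 lower, and 9 ratios past the threshold each time. Over the other settings, 296 member fold changes kept their direction and side of the threshold, 12 lost the call, 3 gained one and 1 turned, Gapdh after quantile normalization (0.35). For MI_DCA against MI_vehicle hearts, leaving out 1 heart gave 0 members and 0 to 4 ratios, array weights gave 11 members higher and 14 lower, and a pseudocount of 0.1 gave 2 ratios. For MI_DCA against sham_vehicle hearts, leaving out 1 heart gave 0 to 6 members higher, 1 to 15 lower and 4 to 7 ratios. There the members higher numbered 2 after median-ratio scaling or quantile normalization, both without Hk1, Pfkp and Ldha, and 3 without a filter or as TPM. Those lower numbered 9 after median-ratio scaling or as TPM, both with Bpgm added, 11 after quantile normalization, with Tpi1, Bpgm and Phka1 added, 5 with all 18 libraries in 1 fit, 4 with array weights or without a filter and 3 with a replicate block. The cause was not tested. Whether replicate numbers pair the hearts was not settled. A same-numbered correlation over 0.1 was found in 4 of 6 pairs for MI_DCA with MI_vehicle hearts (range -0.448 to 0.695). It was found in 1 of 6 for each infarcted group with sham_vehicle hearts. The infarcted hearts also differ in how far they lie from the sham hearts, and these correlations cannot separate that from pairing. With a replicate block, Gyg (adjusted p = 0.0569) and Aldoa (adjusted p = 0.0689, both limma) were not called in MI_vehicle against sham_vehicle hearts. With the same pairing, 0 ratios passed in either comparison with sham_vehicle hearts (smallest adjusted p = 0.0721, exact sign-flip test). The 64 sign patterns of 6 pairs allow no unadjusted p below 0.03125 in that test. Depth limits Aldoc, Hk3 and other genes of few reads.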
